A study of Homo sapiens with 6 samples.

Results

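The IL-6, IL-10 and IL-12 families of cytokines and the receptor chains through which they reach STAT3 were measured in SU-DHL-2 cells cultured with or without IL-17A. The genes were the cytokine subunits IL6, IL10, EBI3, IL27, IL12A, IL12B and IL23A and the receptor chains IL6R, IL6ST and IL10RA, 10 of the 19740 genes named on the arrays. They were taken by name, and EBI3 was chosen by its measured direction in these same arrays, higher with IL-17A. The comparison between the groups is therefore given for these genes as a description, with no p, and although they entered the fit over all probes, their counts past its threshold are read as no result. They were measured by 16 of the 34127 probes and 43 of the 43118 spots, because IL6, IL10 and EBI3 each had 1 probe spotted 10 times, IL6ST had 7 probes, and each of the other genes had 1 probe on 1 spot.

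SU-DHL-2 is an established cell line from a human diffuse large B-cell lymphoma (DLBCL). It was grown in RPMI medium with fetal bovine serum, and 3 samples received IL-17A at 200 pg/ml for 72 h, while 3 control samples were kept without IL-17A. Cy3-labeled RNA of each sample was measured on its own 1-colour Agilent whole-genome array. The sources speak of 3 samples per group and do not call them independent cultures, so the p-values below measure the spread between these samples.

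Members of these families share receptor chains and a route of signaling. IL-6 binds its own receptor chain IL6R and then IL6ST (gp130), the common signal transducer of the family, and JAK kinases bound to IL6ST phosphorylate STAT3. IL-10 acts through IL10RA and IL10RB, also onto STAT3. The IL-12 family consists of pairs of subunits: IL12A with IL12B forms IL-12, IL23A with IL12B forms IL-23, IL27 with EBI3 forms IL-27, and IL12A with EBI3 forms IL-35. In B-cell lymphomas, autocrine IL-6 and IL-10 are known for activating STAT3, and EBI3 was first found as a gene induced in B cells by Epstein-Barr virus. A secreted pair needs both of its subunits, so the detection of the partners is given below.

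The promoters of EBI3 and IL23A, the members detected on all arrays whose groups did not overlap, and of IL6, the cytokine after which the family is named, are shown here because IL-17 receptor signaling is known to reach NF-kappaB and AP-1. The sequences are from RefSeq (GRCh38.p14), 5′ to 3′ on the strand of the gene, and hold the 250 bases before the annotated start. They lie at chr19:4229273-4229522 on the plus strand for EBI3, chr12:56338634-56338883 on the plus strand for IL23A, and chr7:22726950-22727199 on the plus strand for IL6. Capitals mark matches to a kappaB-type motif, spelled GGG, any 3 bases, T, any base and CC and searched on both strands, or to an AP-1 motif (TGANTCA, the same on both strands).
EBI3: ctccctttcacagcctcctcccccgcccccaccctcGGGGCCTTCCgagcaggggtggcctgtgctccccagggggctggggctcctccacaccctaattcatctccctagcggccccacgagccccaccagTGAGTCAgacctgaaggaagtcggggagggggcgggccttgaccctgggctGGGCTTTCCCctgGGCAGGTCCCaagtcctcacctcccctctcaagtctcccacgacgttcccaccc
IL23A: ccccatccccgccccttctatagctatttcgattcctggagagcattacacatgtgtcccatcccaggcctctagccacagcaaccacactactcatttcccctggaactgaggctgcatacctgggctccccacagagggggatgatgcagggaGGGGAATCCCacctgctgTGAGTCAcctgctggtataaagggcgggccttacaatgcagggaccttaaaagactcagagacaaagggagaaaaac
IL6: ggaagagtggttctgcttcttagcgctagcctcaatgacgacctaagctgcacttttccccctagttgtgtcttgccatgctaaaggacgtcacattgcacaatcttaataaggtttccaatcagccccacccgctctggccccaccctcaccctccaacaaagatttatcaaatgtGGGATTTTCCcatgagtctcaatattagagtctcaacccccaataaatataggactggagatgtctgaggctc
EBI3 held 3 kappaB-type matches, at 214 to 205, 67 to 58 and 54 to 45 bases before the start, the last of them on the other strand, and an AP-1 match at 118 to 112 bases. IL23A held a kappaB-type match at 95 to 86 bases and an AP-1 match at 77 to 71 bases before the start, and IL6 a kappaB-type match at 73 to 64 bases. Among the 9 members with a promoter in the table, which has none for IL27, 6 had a kappaB-type match in at least 1 of their promoters, 4 had an AP-1 match, and EBI3 and IL23A had both. No member had a match to the STAT motif TTCNNNGAA. Of all 35116 promoters, 18.9% held the kappaB-type motif, 6.57% the AP-1 motif, 0.991% both, and 6.57% the STAT motif. These shares count promoters, whereas the member counts are per gene. They were not matched for base composition, and G and C made up 68.8% of the EBI3, 54.8% of the IL23A and 47.6% of the IL6 sequence. The letters of the kappaB-type motif were chosen after these sequences had been seen, the matches did not overlap each other in EBI3 or IL23A, and a match describes letters, not binding.

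Of the 10 genes, 4 were well above background on all 6 arrays: EBI3, IL23A, IL6ST and IL10RA. IL10 and IL27 were well above background on only some arrays, close to the lowest signal that counted as detected, and IL6, IL6R, IL12A and IL12B were detected on no IL-17A array and on at most 1 control array. Thus the EBI3 and IL23A subunits were measured clearly, whereas IL12B, the partner of IL23A, and IL12A, a partner of EBI3, were not. The 6 genes detected on at least 3 arrays entered the fit over all tested probes. All levels below are log2 signals after quantile normalization, in which the lowest detected signal of an array was between 1.86 and 2.11, and they are compared between arrays for a given probe, never between genes.

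**Figure D1:**
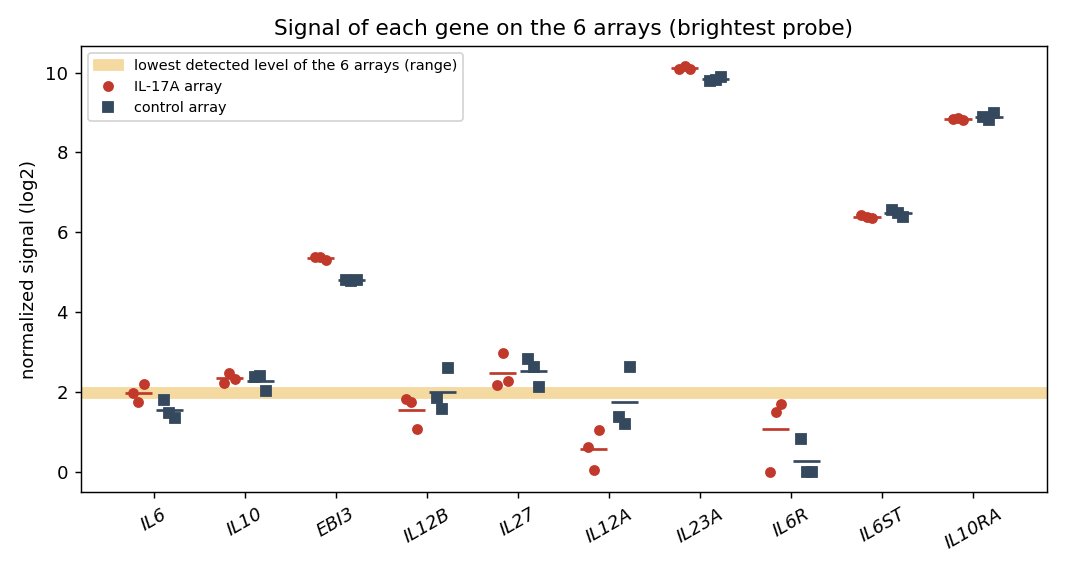
Normalized log2 signal (vertical axis) of the brightest probe of each of the 10 genes (horizontal axis) on the 3 IL-17A arrays (circles) and the 3 control arrays (squares), with horizontal bars at the group means and a band from 1.86 to 2.11 for the lowest detected signal of the 6 arrays. EBI3 and IL23A lie above the band with separate groups, and IL6ST and IL10RA lie above it with overlapping groups. IL10 and IL27 lie at it or somewhat above it, and IL6 and IL12B lie around it. IL6R lies below it, and IL12A mostly below it.

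EBI3, the subunit shared by IL-27 and IL-35, was higher on every IL-17A array than on any control array. Its log2 signal was 5.39, 5.39 and 5.32 on the IL-17A arrays and 4.81, 4.78 and 4.81 on the control arrays. The groups were narrow and well apart. The means were 5.37 ± 0.04 and 4.80 ± 0.02 (SD, n = 3 each), a log2 difference of 0.57 (standard error 0.04), or 1.49-fold, just under the 1.5-fold threshold of the study. Of all tested probes, 1.55% had a difference as high or higher, a description only, since EBI3 was chosen by its direction in this comparison. The 10 spots of the probe, which are technical repeats on an array and not further samples, gave the same picture before any normalization. Their background-subtracted intensity ranged from 36.1 to 50.05 (median 40.8) over the 30 spots of the IL-17A arrays and from 23.7 to 35.6 (median 27.8) over the 30 spots of the control arrays, so that the dimmest IL-17A spot was brighter than the brightest control spot. Within an array the spots varied by 5.47% to 8.06% of their mean.

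In these bulk samples, a larger share of cells with EBI3 RNA and more EBI3 RNA per cell cannot be told apart. Since the groups did not overlap, leaving out an array could not reverse the direction of the EBI3 difference, only change its size. Leaving out each array in turn gave log2 differences of 0.56 to 0.60. No label names the slides, which were inferred here and below from shared scan times. By that inference IL-17A replicate 1 shared a slide with the 3 control arrays, and on that slide alone the difference was 0.60. A fit with slide as a block gives this same value by construction, since the other slide held IL-17A arrays only, and it rests on that 1 IL-17A array. The size of the difference depended on the treatment of the background, since the normexp correction with an offset of 50, which compresses dim signals, gave 0.16.

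**Figure D2:**
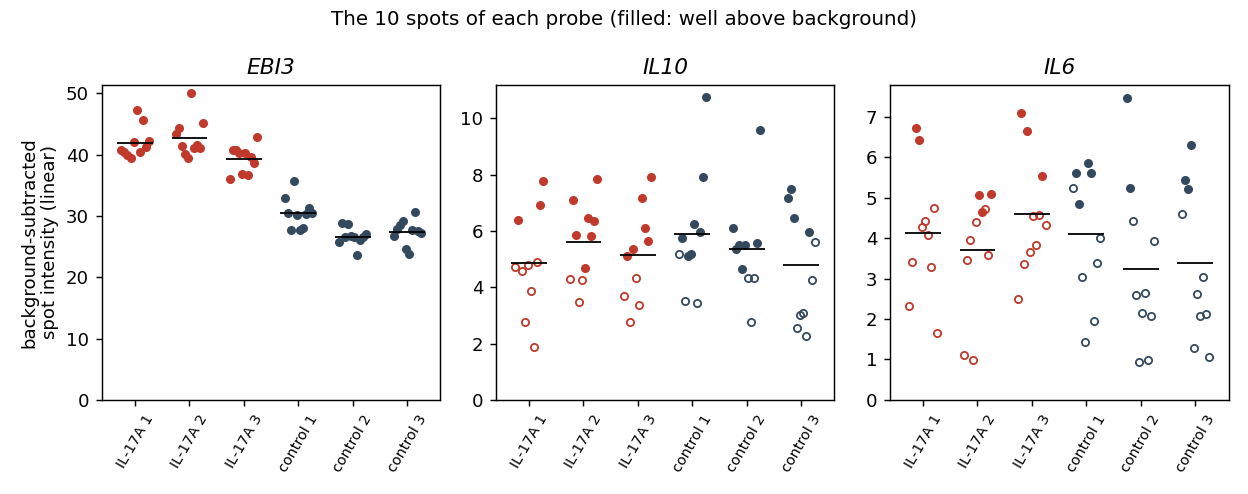
Background-subtracted intensity on a linear scale (vertical axes, each with its own range) of the 10 spots of the EBI3, IL10 and IL6 probes on each of the 6 arrays (horizontal axes, IL-17A in red, control in dark blue). Filled points were well above background, open points were not, and horizontal lines are array means. The EBI3 spots of the groups do not overlap, and those of IL10 and IL6 do.

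IL23A, the subunit particular to IL-23, was also higher on every IL-17A array. Its log2 signal was 10.10, 10.16 and 10.09 with IL-17A and 9.80, 9.81 and 9.89 in the controls. The means were 10.12 ± 0.04 and 9.83 ± 0.05 (SD, n = 3 each), a log2 difference of 0.28 (standard error 0.04), or 1.22-fold. This was smaller than the EBI3 difference, and 8.11% of all tested probes had a difference as high or higher. The difference was 0.27 on the slide that held both groups and 0.26 to 0.31 with each array left out.

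IL27 and the IL12A and IL12B subunits were near or below the limit of detection. IL27, which pairs with EBI3, had log2 signals of 2.18, 2.98 and 2.29 with IL-17A and 2.83, 2.62 and 2.12 in the controls. It was detected on 2 of 3 IL-17A arrays and on all 3 control arrays, and the groups overlapped widely. The difference of -0.04 (standard error 0.28) was far inside the spread, and it ranged from -0.34 to 0.11 over the alternatives tried. IL12B, the shared subunit of IL-12 and IL-23, was detected on none of the IL-17A arrays (1.84, 1.75 and 1.07) and on 1 control array (1.86, 1.57 and 2.62). IL12A, the subunit of IL-12 and IL-35, was likewise detected on no IL-17A array (0.62, 0.04 and 1.05) and on 1 control array (1.38, 1.22 and 2.64). Neither subunit was thus measured beside EBI3 and IL23A with IL-17A. The IL12A signals of the groups did not overlap, but with all IL-17A arrays and most control arrays below the detection limit no fold change can be given for it, nor for IL12B.

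IL6, the ligand of IL6R, was not detected as a probe on any of the 6 arrays. Its log2 signal was 1.99, 1.75 and 2.20 with IL-17A and 1.81, 1.48 and 1.37 in the controls. The groups overlapped and no fold change is given, since both were at background. Of the 30 spots in each group, 8 (26.7%) were well above background with IL-17A and 9 (30%) in the controls, and within an array the spots varied by 31.4% to 62.9% of their mean.

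IL10, the ligand of IL10RA, lay at the edge of detection. It was detected on 2 of 3 arrays in each group, with log2 signals of 2.22, 2.47 and 2.34 with IL-17A and 2.39, 2.40 and 2.03 in the controls. The groups overlapped, and 16 of 30 spots with IL-17A against 18 of 30 in the controls were well above background. The means of 2.35 ± 0.13 and 2.27 ± 0.21 (SD, n = 3 each) gave a difference of 0.08 (standard error 0.12), within the spread between replicates. On the slide that held both groups, the difference was -0.05. For IL6 and IL10, the groups thus still overlapped after averaging 10 spots, at signals about the lowest these arrays could detect, and IL6 was not tested.

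The groups overlapped for each of the receptor chains. IL6R, the chain that binds IL-6, was detected on no array, with log2 signals of 0.00, 1.502 and 1.70 with IL-17A and 0.83, 0.01 and 0.00 in the controls, where 0.00 is the floor set for the dimmest spots. IL10RA, the binding chain for IL-10, was bright on all arrays, at 8.84, 8.87 and 8.81 with IL-17A and 8.89, 8.81 and 8.996 in the controls. Its groups overlapped, with means of 8.84 ± 0.03 and 8.90 ± 0.09 (SD, n = 3 each) and a difference of -0.06 (standard error 0.06).

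IL6ST, the signal transducer shared across the IL-6 family, was measured by 7 probes, all of them tested. The brightest probe gave log2 signals of 6.44, 6.39 and 6.35 with IL-17A and 6.56, 6.50 and 6.37 in the controls, a difference of -0.08 (standard error 0.06). The groups overlapped at this probe, as they did at each of the other 6. Over the 7 probes the difference ranged from -0.10 to 0.34, with 5 probes higher and 2 lower with IL-17A, and the largest value belonged to the dimmest probe (standard error 0.20). The probes are not independent, since all 7 measured transcripts of 1 gene, 4 of them annotated to the same transcript and the other 3 to another. With the mean over the 7 probes in place of the brightest, the IL6ST difference was 0.10, so that its sign depended on the choice of probe.

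**Figure D3:**
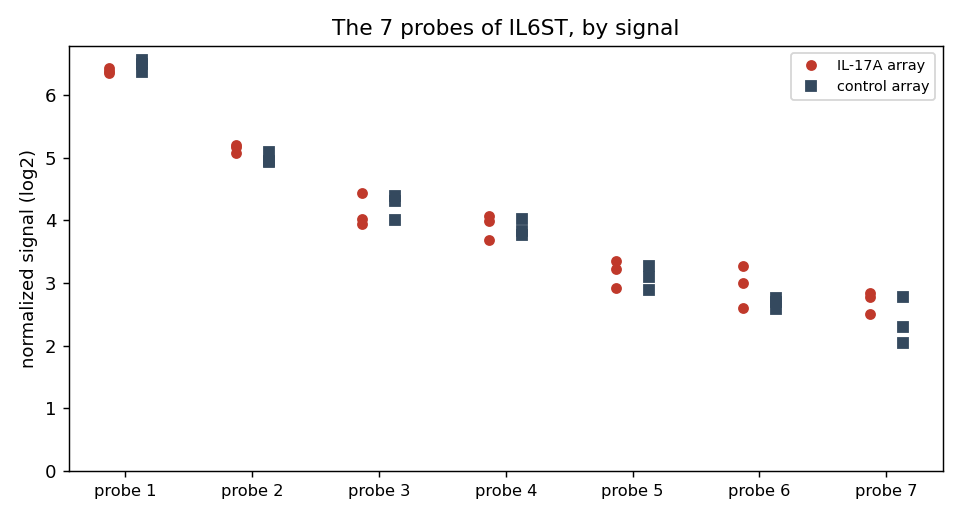
Normalized log2 signal (vertical axis) of the 7 IL6ST probes, ordered by brightness (horizontal axis), on the 3 IL-17A arrays (circles) and the 3 control arrays (squares). The groups overlap at every probe, and the direction differs between probes, from -0.10 to 0.34 on the log2 scale.

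In the fit over all tested probes with limma, an adjusted p under 0.05 was reached by 7.59% of the 23945 probes (4.43% higher and 3.17% lower with IL-17A). Of the 6 member genes in that fit, EBI3 and IL23A were among these, both higher, and none was lower. No member reached a fold change of 1.5, which 2.18% of all tested probes did together with an unadjusted p under 0.05. The IL-17A and control arrays did not overlap for EBI3 and IL23A, as for 38.9% of all tested probes. Since the choice of the members used this comparison, nothing is read from these counts. The median log2 difference of the 6 genes was 0.02, against 0.01 over all tested probes, with 3 genes higher and 3 lower. The count of 2 members was 1 (EBI3) without IL-17A replicate 1 and 0 when IL-17A replicate 2 or 3 or control replicate 1 or 2 was left out, as with slide as a block. At an unadjusted p under 0.05 from limma the count was 2 in these fits, a threshold that 21.1% to 28.8% of all tested probes passed there.

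**Figure D4:**
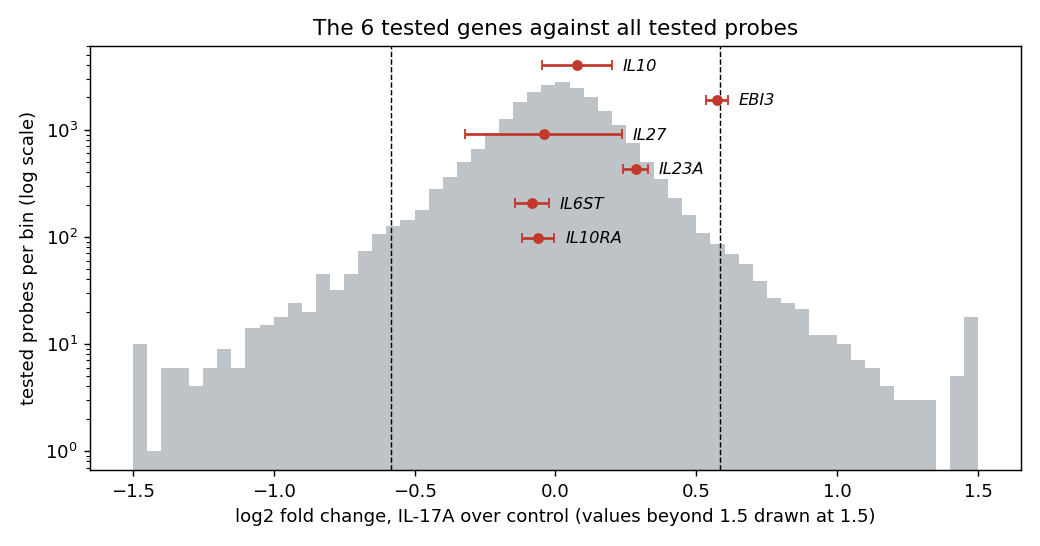
Histogram of the log2 fold change, IL-17A over control (horizontal axis), of the 23945 tested probes (vertical axis, probes per bin on a log scale), with the 6 tested member genes as points whose bars are 1 standard error and whose height has no meaning, and dashed lines at 1.5-fold. EBI3, at 0.57, lies at the upper line, IL23A is at 0.28, and the other 4 genes lie near 0.

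The other genes of these pathways were described with lists written from general knowledge, 110 genes without the members, of which 93 were tested. Of these 93, 13 had an adjusted p under 0.05 over all tested probes, 9 higher and 4 lower with IL-17A, while among all 14747 named genes tested 7.85% of the brightest probes did, 4.37% higher and 3.48% lower. This count depended on single arrays. It was 0 when IL-17A replicate 1, 2 or 3 or control replicate 1 or 2 was left out, 3 without control replicate 3, and 0 with slide as a block, while 25 to 37 of the 93 genes (26.9% to 39.8%) had an unadjusted p under 0.05 from limma in these fits, against 39 (41.9%) on all arrays. Of all tested probes, 21.1% to 31.3% passed that threshold in the same fits and 31.3% on all arrays.

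Among 16 other ligands of the same families, 11 were tested, with a median log2 difference of -0.11, and 1 of them was higher at an adjusted p under 0.05 from limma. This was CNTF, a neurotrophic ligand that signals through IL6ST. It was detected on all 3 IL-17A arrays and on 1 of 3 control arrays, so that it entered the test through the group in which it was higher, and its mean log2 signals of 2.76 and 1.98 lay close to the lowest detected signal, for which reason no size is given. IL22 and IL31, ligands best known as products of T cells, were detected on no array, while IL26 was detected on 3 IL-17A and 2 control arrays. In direction, 5 of the 11 tested ligands were higher and 6 lower with IL-17A. OSM, 1 of the higher ones, had a difference of 0.33 and did not pass (adjusted p = 0.0523 from limma).

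Of 15 other receptor chains, 8 were tested, 2 higher and 6 lower with IL-17A, with a median log2 difference of -0.13. At an adjusted p under 0.05 from limma, 1 of them was lower and none higher. IFNLR1, the chain that gives specificity to the interferon lambda receptor and pairs with IL10RB, fell by 0.22 (standard error 0.03, adjusted p = 0.0330 from limma) at its brightest probe. The other IFNLR1 probes had log2 differences of -0.02 and -0.31 and did not pass. IL10RB, the second chain of the IL-10 receptor, had a log2 difference of 0.07 (adjusted p = 0.194) and IL27RA, which binds IL-27, of -0.08 (adjusted p = 0.393), neither past the threshold of the limma fit. IL23R, the receptor chain particular to IL-23, was detected on no array.

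Of 27 genes of JAK-STAT signaling, 25 were tested, 16 higher and 9 lower with IL-17A, with a median of 0.08. At an adjusted p under 0.05 from limma, 2 were higher and none lower. STAT5A, a STAT protein activated by many cytokines, rose by 0.23 (standard error 0.04, adjusted p = 0.0363 from limma). PTPN2, a phosphatase that acts on JAK kinases and STAT proteins, rose by 0.20 (standard error 0.04, adjusted p = 0.0470 from limma) at its brightest probe, and its other probe had a log2 difference of -0.03. STAT3 itself, the factor on which IL-6 and IL-10 converge, was at 6.82 ± 0.13 with IL-17A and 6.69 ± 0.05 without it (SD, n = 3 each), a difference of 0.13 (adjusted p = 0.287 from limma) within the spread between arrays.

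Of 24 known STAT3 target genes, 22 were tested, 15 higher and 7 lower with IL-17A, with a median of 0.06. At an adjusted p under 0.05 from limma, 3 were higher and 1 lower. PRDM1, the transcription factor of plasma cell differentiation, rose by 0.38 (standard error 0.06, adjusted p = 0.0327 from limma). BCL3, an atypical IkappaB protein that works with NF-kappaB subunits in the nucleus, rose by 0.31 with the same adjusted p, and VEGFA, an angiogenic growth factor, rose by 0.24 (adjusted p = 0.0475). SBNO2, a transcriptional regulator of the IL-10 response, fell by 0.21 (adjusted p = 0.0363) at its brightest probe, whereas its other probe had a log2 difference of 0.32. SOCS3, the feedback inhibitor that binds IL6ST, was at the edge of detection, on 1 of 3 IL-17A arrays and 2 of 3 control arrays, with a difference of -0.47 (adjusted p = 0.436 from limma).

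Of 29 regulators of cytokine genes, factors that act on their promoters or messages, 28 were tested, 15 higher and 13 lower with IL-17A, with a median of 0.02. At an adjusted p under 0.05 from limma, 5 were higher and 1 lower. PRDM1 and BCL3 counted here too. RELB, an NF-kappaB subunit, rose by 0.30 (standard error 0.05, adjusted p = 0.0330 from limma). REL, another NF-kappaB subunit, rose by 0.22 (adjusted p = 0.0367 from limma) and JUN, a component of AP-1, by 0.40 (adjusted p = 0.0368), and these are named after their values were seen. RELA had a log2 difference of -0.09 (adjusted p = 0.378 from limma) at its brightest probe, while 1 of its 2 probes was higher. NFKB1 had a difference of 0.08 (adjusted p = 0.157 from limma), so that the NF-kappaB subunits did not all pass. ATF3, a stress-induced repressor of cytokine genes, gave probes that disagreed, with a brightest probe that fell by 0.37 (adjusted p = 0.0363) and another that rose by 0.44 (adjusted p = 0.0314).

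**Figure D5:**
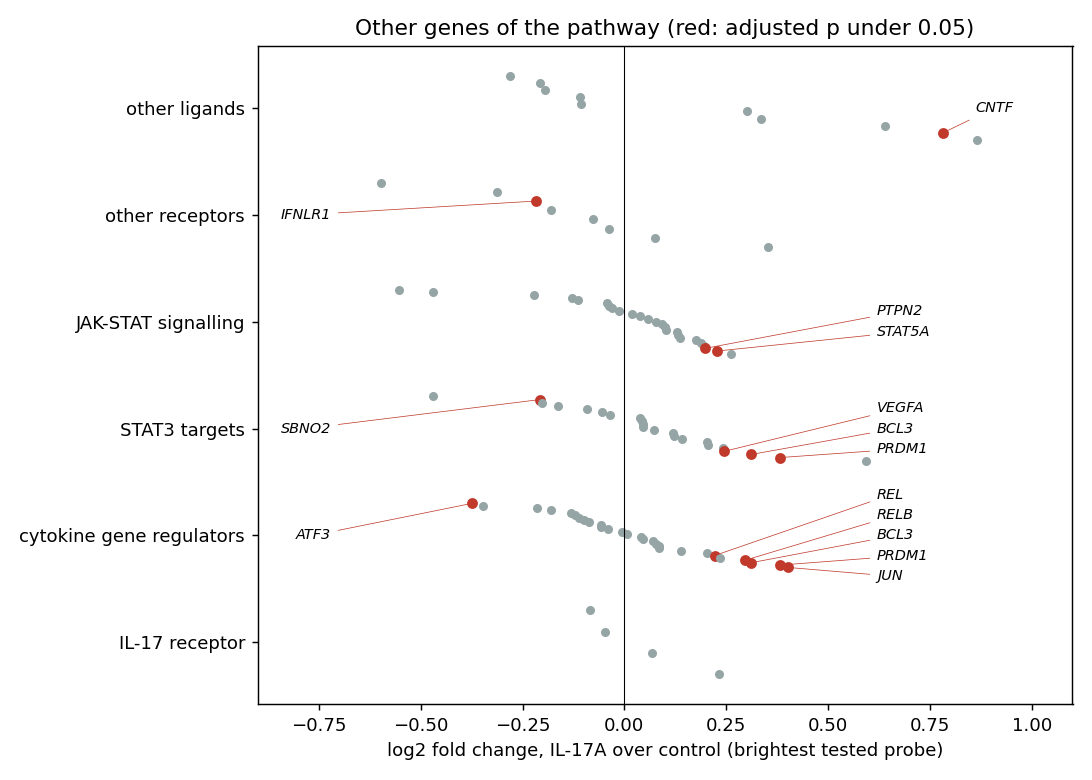
Log2 fold change, IL-17A over control (horizontal axis), of the brightest tested probe of the genes reported in 6 lists (vertical axis, genes of a list spread by value). Red points had an adjusted p under 0.05 from limma over all tested probes and carry their names, and grey points did not. Most genes lie between -0.25 and 0.25, and BCL3 and PRDM1 appear in 2 lists.

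The IL-17 receptor genes were detected on all 6 arrays. IL17RA, the shared chain of IL-17 receptors, was at 9.10 ± 0.07 with IL-17A and 9.15 ± 0.02 without it (SD, n = 3 each), a difference of -0.05 (adjusted p = 0.525 from limma), although 1 of its 3 probes, the dimmest, fell by 0.26 (adjusted p = 0.0425). IL17RC, its partner for IL-17A, had a difference of -0.08 (adjusted p = 0.601) and IL17A of 0.23 (adjusted p = 0.382). None of the 4 genes of the list passed at its brightest probe.

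The genes whose pattern over the 6 arrays was most like that of EBI3 were TNFAIP8 (Pearson r = 0.999), ZRSR2 (0.999), BCAS1 (0.999), AIMP1 (0.996) and SF3B1 (0.996), each at its brightest probe. With 3 arrays on either side of the same comparison, a high r mostly repeats the difference between the groups, and 567 of 14746 named genes had an r of at least 0.95. The log2 differences of the 5 genes were 0.18, 0.23, 1.12, 0.15 and 0.20.

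The label of the cells was checked with markers, and the arrays with their signals. All 10 B cell markers, among them CD79A and CD79B, were detected on all 6 arrays, and none passed at its brightest probe, although 1 of the 3 EBF1 probes did. At the brightest probes 8 of the 10 were higher and 2 lower with IL-17A, with a median log2 difference of 0.17. The lowest p at these probes belonged to EBF1 (0.20, adjusted p = 0.0616 from limma) and CD79A (-0.17, adjusted p = 0.0629 from limma). Monocytes, macrophages and dendritic cells are known sources of IL-12 family cytokines. Of their markers, S100A8, S100A9, CSF1R, FCGR3A, MNDA, CD163, CD1C and CLEC9A were detected on no array, and LYZ had no named probe. The 5 of 14 that were tested, CD14 among them, were all lower with IL-17A at their brightest probes. None of the 5 was past the threshold (FCN1 -0.28, MARCO -0.91). Of the 2 FCN1 probes 1 was higher with IL-17A. The MARCO groups overlapped, with detection on 2 of 3 IL-17A arrays. Of 14 T and NK cell markers 10 were tested, 5 higher and 5 lower with IL-17A, with a median log2 difference of -0.02. CD3E alone passed and fell by 0.46 (adjusted p = 0.0401 from limma), while CD2 rose by 0.51 without passing (adjusted p = 0.0539). CD5, TRAT1, KLRD1 and NCAM1 were detected on no array. Of 12 mesenchymal and endothelial markers 5 were tested, none past the threshold, with 3 lower (among them CDH5 -0.30, PECAM1 -0.16) and 2 higher (COL1A1 0.04, PDGFRB 0.08). COL1A2, COL3A1, DCN, LUM, THY1, PDGFRA and KDR were detected on no array. The summed linear signal was 158 to 167 with IL-17A against 181 to 225 in the controls for the monocyte list, 1129 to 1215 against 1307 to 1491 for the T and NK list, 266 to 276 against 290 to 334 for the mesenchymal and endothelial list, and 73702 to 74959 against 67060 to 71505 for the B cell list. A linear sum gives most weight to its highest signal, which in the T and NK list was CD4. CD4 averaged 10.11 in the controls against 9.80 under IL-17A on the log2 scale (difference -0.31, adjusted p = 0.0669 from limma). CD3G, the next highest of that list, averaged 6.63 and 6.75 in the same order. The lower T and NK sum was therefore largely CD4 and not a shift of the whole list, where 5 markers rose. The sums of the lists moved with the treatment, and their part in the differences of EBI3 and IL23A was not tested. The arrays detected 23570 to 24077 probes each, and no spot was saturated.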

How the data were processed

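The deposited scanner files give a linear intensity per spot of 1-colour Agilent arrays, background-subtracted by Feature Extraction 11.0.1.1 and not normalized between arrays. The log2 table that the authors deposited holds their quantile-normalized, floored values and served as an alternative. Control and non-uniform spots were dropped, intensities below 1 were raised to 1, log2 values were averaged over a probe's spots, and quantile normalization followed the study's methods. A probe counted as detected when at least 0.5 of its spots were positive, significant and well above background. Tested were the 23945 probes (70.2%) detected on at least 3 of 6 arrays. Groups came from the sample titles, gene names from RefSeq accessions (GRCh38.p14), and the brightest tested probe stood for its gene.

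The groups were compared with limma 3.58.1 in R 4.3.3 (two-sided, no covariates, Benjamini-Hochberg adjustment across the tested probes), after checks on simulated data. Slides were inferred from shared scan times. The members, lists and tests were chosen with earlier results of these data known. Named by rule were all members, up to 4 genes per list with the lowest p among those that passed (2 where none did), the IL-17 receptor chains with IL17A, and the 5 genes most like EBI3. Other genes were named outside this rule with earlier results known, among them STAT3, SOCS3, RELA, NFKB1 and some ligands, receptor chains and cell markers. Alternatives were 75th percentile scaling, no normalization, normexp with an offset of 50, the authors' table, other detection filters, raised dim signals, a variance trend, the methods' t-test, blocks by replicate number or slide, the mean over probes, and leaving out each array. A pathway gene and a marker are counted but not reported here. Precision is limited by the number of arrays.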

Additional observations from a re-analysis of the deposited data

How the results depend on the processing

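EBI3 and IL23A were higher with IL-17A under each of the 16 alternatives tried for them, by 0.16 to 0.60 and 0.26 to 0.33 on the log2 scale. Their groups did not overlap, so the alternatives that left out an array could not reverse this direction. IL10RA was lower under each of 16, by -0.11 to -0.01. IL10 (-0.05 to 0.14), IL27 (-0.34 to 0.11) and IL6ST (-0.14 to 0.10) had both signs. What changed was the count past an adjusted p of 0.05. For all tested probes it was 1818, against 46 without normalization between arrays, 3846 with a variance trend, 48 with slide as a block, and 2 to 983 with an array left out. The count of members, 2 on all arrays, was 0 without normalization and with slide as a block, and 0 to 2 with an array left out. The count of pathway genes, 13 on all arrays, was 0 without normalization and with slide as a block, 21 with a variance trend, and 0 to 3 with an array left out. At an unadjusted p under 0.05 from limma, the counts were 2 members and 24 of 93 pathway genes (25.8%) without normalization, where 19.8% of all tested probes passed, and 2 members and 25 pathway genes (26.9%) with slide as a block, where 23.3% did. Probes of at least 1.5-fold with an unadjusted p under 0.05 numbered 522, against 15 with normexp, whose offset of 50 compresses dim signals, 978 without a detection filter, 299 with probes detected on all 6 arrays, and 409 to 658 with an array left out. Of the probes called, 46.2% were higher with IL-17A, against 26.2% with 75th percentile scaling and 30.4% without normalization, and of those past the adjusted threshold 58.3%, against 45.7% without normalization and 29.2% with slide as a block. The cause of these changes was not tested otherwise.

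No source says whether the replicate numbers pair the samples. The deviations of same-numbered arrays correlated at -0.09, 0.00 and -0.05, and those of differently numbered arrays at -0.05 to 0.08. With 3 arrays per group these values cannot decide whether the samples were paired. With a replicate block, 4 probes, 0 members and 0 pathway genes had an adjusted p under 0.05, while 6375 probes (26.6%), 2 members and 33 pathway genes (35.5%) had an unadjusted p under 0.05 from limma. None of these counts supports the choice of the members, which used the same arrays. Signal over background limits IL6, IL10, IL27, IL12A, IL12B and IL6R, for which no difference between the groups could be established here.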
